A study of Homo sapiens with 4 samples.

Results

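The cytosolic ribosomal protein genes encode the proteins of the ribosome outside mitochondria, and 52 of the 19775 genes measured in the series belonged to them. A gene was a member when a probeset (the set of short probes that reports on a transcript) named it alone and its symbol was RPL or RPS followed by a number, with or without A or X, or RPLP0, RPLP1, RPLP2 or RPSA. Each member was represented by its probeset of highest mean over the 4 arrays. Probesets whose name ends in _x_at, which can bind several transcripts, were used where a gene had no other, as for 7 members. Of the 52 members, 32 encode proteins of the large subunit and 20 of the small subunit. RefSeq holds 77 genes whose symbol matches the rule, and the other 25, among them RPLP0, RPSA, RPL5 and RPS2, were not analysed here as named genes.

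The arrays measured messenger RNA of HuH7, a human hepatocellular carcinoma line. The parental group, F0, had 2 arrays, here F0 (1) and F0 (2), and no round of regrafting. F6 and F12, with 1 array each, were obtained by growing HuH7 tumors in NOD/SCID mice, which lack T and B cells. The mice received JNJ-28841072, which inhibits the VEGF receptor and aurora kinases. Tumors that resisted it were grafted into further mice, 6 times for F6 and 12 times for F12. The phenotype label of both resistant samples names sorafenib, another kinase inhibitor, and the drug behind that label was not settled here. Regrafting and treatment cannot be told apart, since no array came from untreated tumors passed in the same way, and 1 array per resistant group leaves no replicate check. RNA was taken from tissue specimens, per the labels, and cells of the host mouse may be in them. Nothing in the labels tells whether separate cultures or tumors gave the F0 arrays. P-values for F6 or F12 singly then measure the spread between this pair, and those for F6 and F12 joined also the spread between F6 and F12. Either spread may be technical.

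A ribosome is built from ribosomal RNA and a fixed set of proteins, most of them present once per particle. Cells therefore make the ribosomal proteins in near-equal amounts, and proteins left unassembled are degraded. The messages of these genes begin with a run of pyrimidines, the 5′ terminal oligopyrimidine tract, through which the mTOR kinase and the RNA-binding protein LARP1 set their translation and stability. In the liver, as in other tissues with high protein output, ribosomal protein messages are among the most abundant of the cell.

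The start of the transcript was read from the RefSeq promoter table (build GRCh38.p14), which held an entry for 46 of the 52 members. The motif searched was a C at the annotated first transcribed base followed by at least 4 bases that are C or T, on the transcribed strand. It was present at an annotated start of 34 of the 46 members (73.9%), against 6.07% of the 15384 genes on the arrays with an entry. The lines that follow give 10 bases before and 20 bases from the start, with the uninterrupted pyrimidine run in capitals. The first 4 members varied little over the arrays, the next 6 varied widely, the following pair was low on F6, and RPS7 is a wide member whose annotated start did not hold the motif.
RPLP1, chr15:69452808-69452837, plus strand: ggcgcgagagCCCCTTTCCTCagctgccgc
RPS16, chr19:39435930-39435959, minus strand: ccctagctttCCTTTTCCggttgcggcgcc
RPL41, chr12:56116623-56116652, plus strand: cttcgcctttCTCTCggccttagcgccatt
RPL37A, chr2:216498834-216498863, plus strand: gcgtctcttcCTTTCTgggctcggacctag
RPL31, chr2:101002279-101002308, plus strand: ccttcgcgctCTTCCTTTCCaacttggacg
RPS24, chr10:78033853-78033882, plus strand: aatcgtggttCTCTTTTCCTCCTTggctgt
RPL22, chr1:6199576-6199605, minus strand: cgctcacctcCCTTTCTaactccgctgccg
RPL11, chr1:23691796-23691825, plus strand: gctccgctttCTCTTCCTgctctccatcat
RPS6, chr9:19380217-19380246, minus strand: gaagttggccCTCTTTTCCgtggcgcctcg
RPL12, chr9:127451387-127451416, minus strand: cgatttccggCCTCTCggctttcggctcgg
RPL34, chr4:108620566-108620595, plus strand: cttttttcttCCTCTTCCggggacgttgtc
RPL35A, chr3:197950180-197950209, plus strand: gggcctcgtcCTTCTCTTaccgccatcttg
RPS7, chr2:3575250-3575279, plus strand: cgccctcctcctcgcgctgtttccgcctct

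RPL11 and RPL34 have 2 annotated starts each, and the start with the longer run is shown. The run was 5 bases long in RPL41 and 14 in RPS24. The motif was present in some steady and some wide members. RPL32 and RPS28, also among the 5 members of narrowest range, did not hold it and are not shown. The 34 members with the motif had a median range over the arrays of 0.63 on the log2 scale, and the 12 with an entry but without it 0.33. A missing match says only that these letters do not stand at the annotated start.

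The parental arrays were not alike, and each was nearer to a resistant sample than to the other. The Pearson r across all genes, which are not independent replicates, was 0.687 for F0 (1) with F0 (2), 0.917 for F0 (1) with F6 and 0.976 for F0 (2) with F12. F6 had an r of 0.873 with F0 (2) and 0.869 with F12, and F0 (1) had 0.675 with F12. Markers of liver cells were measured at a log2 signal of at least 6 on 1 or more arrays for 10 of 10 genes. The list medians ran from 11.17 on F0 (1) to 12.32 on F12. APOA1 was near background, from 5.20 on F0 (2) to 6.57 on F0 (1). The liver markers did not move together: ALB, AFP, APOB, TF and FGB were higher on F0 (2) than on F0 (1). TTR, APOA1, SERPINA1, KRT8 and KRT18 were lower. Among markers of other cell types, PTPRC of leukocytes, the endothelial marker CDH5 and the fibroblast collagen COL3A1 read under 4 on every array. A log2 signal of at least 6 on 1 or more arrays was reached by 2 of 7 leukocyte, 2 of 6 endothelial and 1 of 6 fibroblast genes. These were LYZ, a secreted lysozyme of myeloid cells, at 8.34 on F0 (1) to 11.98 on F0 (2), CD14 (5.16 to 6.89), PECAM1 (6.16 to 6.92), CLDN5 (5.05 to 6.04) and PDGFRB (4.75 to 6.18). The summed log2 signal of the leukocyte list lay between 31.82 on F12 and 38.58 on F6, that of the endothelial list between 25.30 and 29.49, and that of the fibroblast list between 24.34 and 27.80. Their part in the members' values was not tested. The markers are human genes, while cells of the host would be of the mouse. Low signals here thus do not show that host cells were scarce. In bulk samples such as these, fewer cells of a type and less RNA per cell cannot be told apart.

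Ribosomal protein genes filled the top of the signal scale. Of the 68 genes with a mean of at least 13 over the 4 arrays, 39 were members, and members made up 35 of the 50 genes of highest mean. The median over members was 13.70 on F0 (1), 13.73 on F0 (2), 13.60 on F6 and 13.74 on F12, where the array maxima lay between 14.43 and 14.58. RPL41, which encodes the shortest protein of the ribosome, had the highest mean of all members, 14.45. At the other end 7 members had a mean under 12: RPL22, RPL38, RPL27A, RPL31, RPLP2, RPL36A and RPL7. RPL36A and RPL7 read under 6, near background, on every array, so these probesets give no level for them. RPLP2, a stalk protein that recruits elongation factors, read from 5.43 to 6.33, also near background. Signals of different probesets are not levels on a common scale, so these 7 values do not show that the messages were scarce.

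Most members varied less across the arrays than other genes at the top of the signal scale. The 6 members with a mean of 12 to 13, taken as a set, did not. The median range (highest minus lowest log2 signal of the 4 arrays) was 0.53 over the 52 members, or a ratio below 2-fold, and 1.37 over all genes. Signal itself moves with range, so genes of like signal were set beside them. The 1449 other genes whose mean lay between the members' 10th and 90th percentiles (9.63 to 14.17) had a median range of 1.76. Most of that band lies below the bulk of the members (median mean 10.47 against 13.67). A narrower band, from the 25th to the 75th percentile, held 23 other genes with a median range of 1.00. At the top of the scale, 39 members with a mean of at least 13 had a median range of 0.40. The 29 other genes with such a mean had 0.98. Their median means were 13.76 for members and 13.43 for the others, so signal was not fully matched here either. The next bin went the other way. The 6 members with a mean of 12 to 13 had a median range of 2.04, with 16.7% at most 1. The 112 other genes there had 1.32 and 29.5%. A low value on 1 or more arrays lowers the mean, so a wide range can itself move a bright gene into this bin. RPS24, with a mean of 12.44, read 13.93 on F0 (2) and 10.20 on F0 (1). The part of this binning in the wider ranges was not tested. Among the 100 other genes nearest in mean to each member, the member's range fell in the lower part (under the 50th percentile) for 41 of 52 members. For the 39 members with a mean of at least 13, most of those 100 genes were dimmer, since only 29 others reached 13. A range of at most 1, that is within 2-fold on all 4 arrays, was met by 40 of 52 members, 76.9%. The same held for 30.8% of all genes, for 20.4% of the like-signal band and for 55.2% of the other genes with a mean of at least 13. A range of at most 0.5 was met by 25 members, 48.1%, against 8.64% of all genes. This difference was not tested. Signals near the array maximum can be compressed, and the part of compression in the narrow ranges was not tested. Without F0 (1) the members' median range was 0.39 and that of all genes 0.89.

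**Figure D1:**
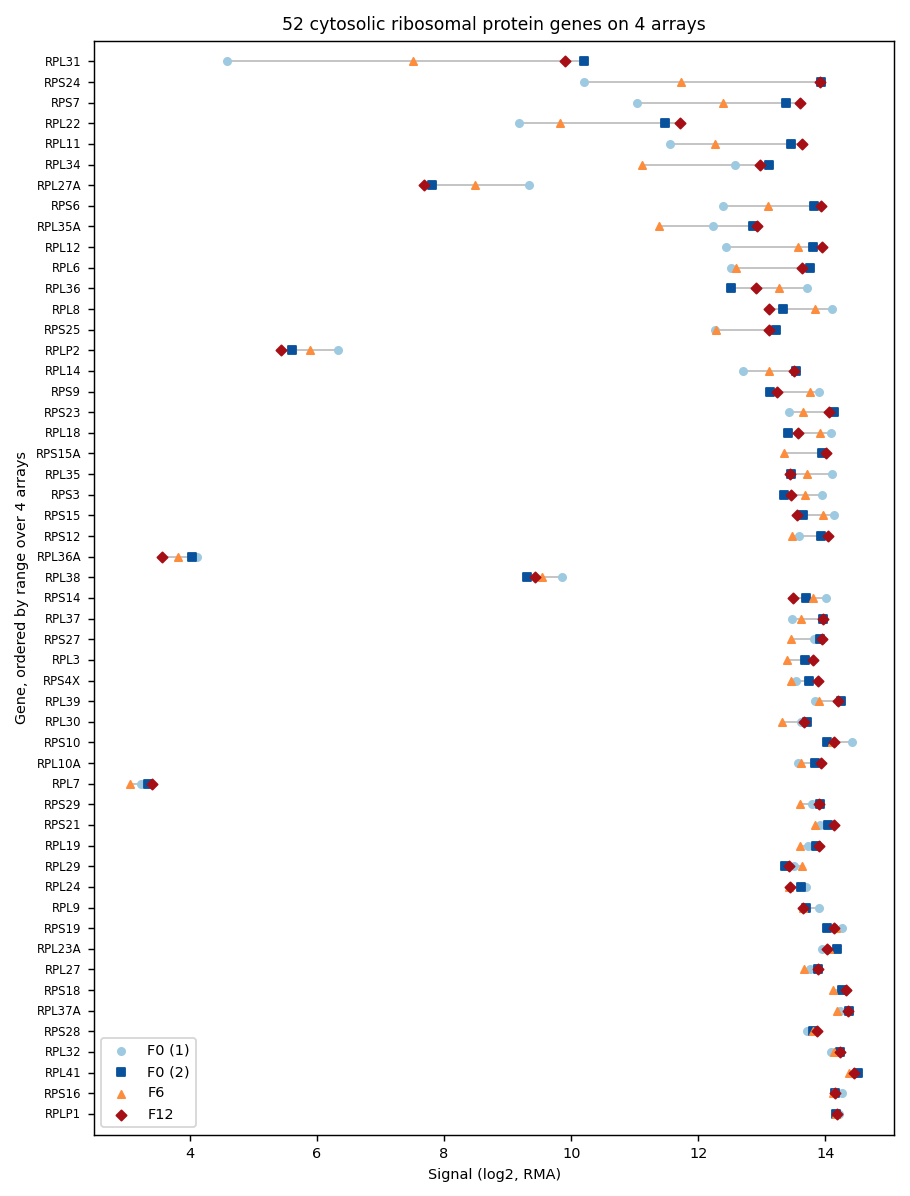
Log2 signal (horizontal axis) of each of the 52 ribosomal protein genes (rows, ordered by range) on the 4 arrays, with grey lines joining lowest and highest. Most rows are clustered above 13 and short, and the long rows at the top, led by RPL31 and RPS24, run mostly from F0 (1) on the left to F0 (2) and F12 on the right.

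**Figure D2:**
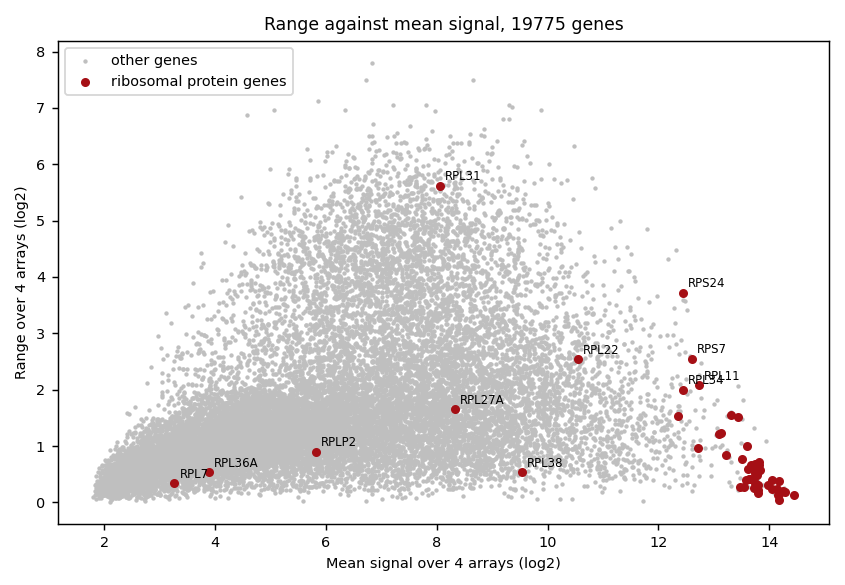
Range over the 4 arrays (vertical, log2) against mean signal (horizontal, log2) for 19775 genes, with ribosomal protein genes in red. Most red points sit at the lower right, 39 of them at a mean of at least 13 with a median range of 0.40, and RPL31 and RPS24 stand high.

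The narrowest members were nearly flat. RPLP1, partner of RPLP2 in the stalk, read 14.21 on F0 (1), 14.16 on F0 (2), 14.17 on F6 and 14.19 on F12, a range of 0.0504. RPS16, whose tail reaches the transfer RNA in the decoding centre, read 14.25, 14.16, 14.11 and 14.14 on the same arrays in that order. RPL41 read 14.48, 14.51, 14.37 and 14.45, and RPL32 read 14.09, 14.24, 14.13 and 14.23. None of these 4 ranged over more than 0.151 on arrays where the median range of all genes was 1.37. RPS28, which lies where messenger RNA leaves the small subunit, read 13.70, 13.81, 13.81 and 13.87. RPS19, the gene most often mutated in Diamond-Blackfan anaemia, an inherited red cell failure, read 14.26, 14.02, 14.16 and 14.13. Measured members of that disease list, 14 in all, had a median range of 0.67 and the other 38 members 0.51, and the small subunit (0.54, 20 genes) was close to the large subunit (0.52, 32 genes).

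In 12 members the range was over 1. Of these, 10 had their highest value on F0 (2) or F12 and 8 their lowest on F0 (1), while RPL36 and RPL27A were highest on F0 (1). Of all 19775 genes, whatever their range, 3245 were highest on F0 (2), 3479 highest on F12 and 5395 lowest on F0 (1). The share among all genes with a range over 1 was not counted, so the order is not shown to be particular to members. RPL31, a protein at the opening of the peptide exit tunnel, read 4.58 on F0 (1), 10.20 on F0 (2), 7.51 on F6 and 9.90 on F12. Its F0 (1) value is near background, so the range of 5.62 is a lower limit for this probeset, not for the gene. Other RPL31 probesets, a brighter _x_at and a dimmer one, had ranges of 1.47 and 2.47, both with F6 lowest. RPL22, also near the tunnel opening, read 9.17, 11.47, 9.83 and 11.71 in that order. Both genes were high on F0 (2) and F12, with F6 nearer to F0 (1) in the case of RPL22. RPL12, at the base of the stalk, read 12.44 on F0 (1) but 13.80, 13.57 and 13.95 on the others, so that F0 (1) alone was low. RPL11, which with RPL5 and the smallest ribosomal RNA can bind the p53 regulator MDM2, read 11.55, 13.45, 12.26 and 13.63.

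Among small subunit genes, RPS24 and RPS7, both mutated in Diamond-Blackfan anaemia, had the widest ranges. RPS24 read 10.20 on F0 (1), 13.93 on F0 (2), 11.72 on F6 and 13.92 on F12. RPS7 read 11.04, 13.38, 12.39 and 13.59. RPS6, the protein phosphorylated by the S6 kinases downstream of mTOR, read 12.38, 13.82, 13.10 and 13.93. In all 3, F0 (2) and F12 lay close together, F0 (1) was lowest and F6 lay between. The messenger RNA entry, exit and decoding region had 5 members (RPS3, RPS9, RPS14, RPS23 and RPS28) with ranges up to 0.77. Their median range was 0.60, where that of all 52 members was 0.53, so they were not steadier than members in general. RPS9, at the entry channel, read 13.90 on F0 (1), 13.13 on F0 (2), 13.76 on F6 and 13.24 on F12, the opposite order to RPS24.

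Between the parental arrays, 8 members were at least 2-fold higher on F0 (2), where 25% of all genes were, and 2 were at least 2-fold lower, where 34.1% of all genes were. The median member difference, F0 (2) minus F0 (1), was 0.11 and that of all genes was -0.60. Centring each array on the median of all genes turned the member median to -0.02. The members at least 2-fold higher were RPL31 (5.62), RPS24 (3.72), RPS7 (2.34), RPL22 (2.29), RPL11 (1.90), RPS6 (1.44), RPL12 (1.36) and RPL6 (1.24). Those lower were RPL27A (-1.52) and RPL36 (-1.21). The widest of these exceeds every member difference between F12 and F6. F0 (2) was the higher array for 30 members, 57.7% against 33.9% of all genes. The ribosomal RNA precursor RNA45SN5 moved with these arrays in the opposite sense, at 12.96 on F0 (1), 6.87 on F0 (2), 11.92 on F6 and 6.54 on F12, and its part in the members' differences was not tested.

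F12 against F6 compares late with early rounds. Ribosomal protein genes were mostly higher on F12: 37 of 52 members, 71.2%, against 36.2% of all genes and 20.7% of the 29 other genes with a mean of at least 13. Centring on all genes left 31 of 52 higher, and centring on like-signal genes 42. Centring shifts every gene, and the share of all genes higher on F12 was not counted after it. The median F12 minus F6 was then 0.19 for members and -0.36 for all genes with the first centring. With the second it was 0.48 and -0.06. Without centring the median member difference was 0.25, with -0.29 over all genes and -0.41 over the like-signal band. At least 2-fold higher were 8 members, 15.4%, against 20.2% of all genes, and 0 were at least 2-fold lower, against 14.7%. Those 8 were RPL31 (2.39), RPS24 (2.19), RPL22 (1.88), RPL34 (1.85), RPL35A (1.54), RPL11 (1.36), RPS7 (1.21) and RPL6 (1.04). The farthest lower, leaving out RPLP2 near background, were RPL27A (-0.81), RPL8 (-0.73), which lies near the peptidyl transferase centre, RPS9 (-0.52) and RPS15 (-0.41). Most members were within 2-fold, and a larger share of them than of all genes was higher on F12. With limma, 0 members and 0 of all genes passed an adjusted p of 0.05, and 116 genes (0.587%) but 0 members lay under 0.05 without adjustment.

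Of those 8 members, 6 (RPL31, RPS24, RPL22, RPL11, RPS7 and RPL6) were also at least 2-fold higher on F0 (2) than on F0 (1), which is 75% of either list of members and 11.5% of the 52, against 18.2% of all genes. Over all genes the overlap was 90% of the F12 minus F6 list and 72.7% of the other, so it is general and not particular to the members. These contrasts share no array. Over the 52 members the differences F12 minus F6 and F0 (2) minus F0 (1) had a Pearson r of 0.873 and a Spearman rho of 0.889, and over all genes the r was 0.855 and the rho 0.817. Points share their arrays and are not independent, so these are descriptions. RPL34 and RPL35A departed from the trend, with F0 (2) minus F0 (1) of 0.54 and 0.62.

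**Figure D3:**
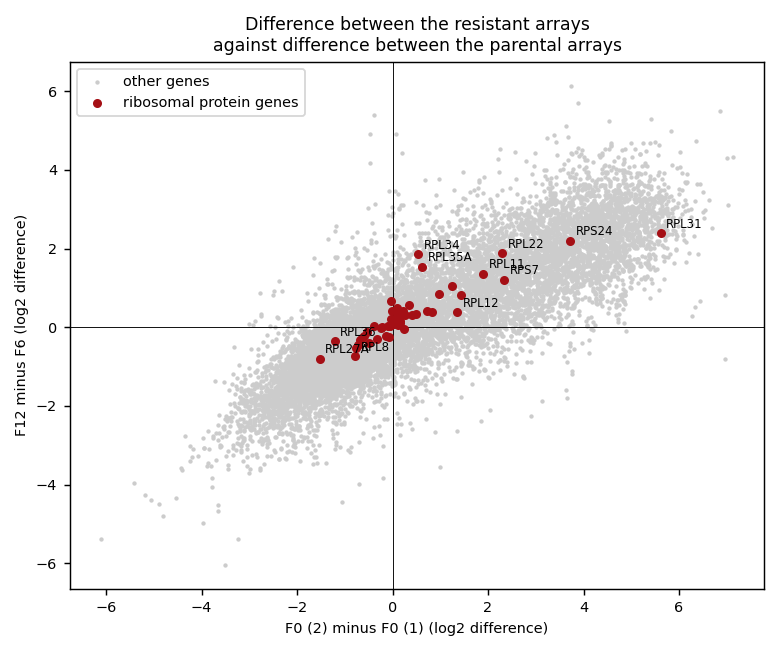
F12 minus F6 (vertical) against F0 (2) minus F0 (1) (horizontal), both as log2 differences, for 19775 genes, with ribosomal protein genes in red. Red points follow the diagonal cloud of other genes (r 0.873 over members), and RPL34 and RPL35A lie above it.

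F6 against F0 asks what differed after 6 rounds. The median member was 0.12 lower on F6 than the F0 mean (-0.12), where all genes had a median of 0.06 and the 29 other genes with a mean of at least 13 had 0.21. At least 2-fold below both F0 arrays was 1 member, RPL34, 1.92% against 0.561% of all genes, and 0 were 2-fold above both, against 0.576%. RPL34, a large subunit protein, read 12.57 and 13.11 on the F0 arrays and 11.11 on F6, and 12.96 on F12. Against the F0 mean 0 members were at least 2-fold higher on F6, with 3.54% of all genes, and 2 lower, RPL34 and RPL35A, with 4.56%. Without F0 (1) 7 members, 13.5% against 36.1% of all genes, were at least 2-fold from the remaining parental array, and without F0 (2) 5 members, 9.62% against 21.2%.

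Below both F0 arrays on F6, by any amount, were 20 members, 38.5% against 10.4% of all genes. A value on F6 or F12 falls outside both F0 arrays more easily where these lie close together. F0 (2) was at least 2-fold higher than F0 (1) for 15.4% of members and at least 2-fold lower for 3.85%. Among all genes these shares were 25% and 34.1%. The part of this in the shares outside both F0 arrays was not tested. F6 was the lowest of the 4 arrays for 19 of 52 members, 36.5%, against 7.57% of all genes, 6.76% of the like-signal band and 0 of the 29 other genes with a mean of at least 13. Without F0 (1) these numbers were 35 members and 30.3% of all genes, and without F0 (2) 21 members and 11.5%. RPL35A, another Diamond-Blackfan gene, read 12.24 on F0 (1), 12.86 on F0 (2), 11.38 on F6 and 12.92 on F12. RPS15A read 13.99, 13.95, 13.34 and 14.01, with F6 lowest and the other arrays close together. RPS27 read 13.82, 13.92, 13.46 and 13.94, and RPL3, which lies close to the peptidyl transferase centre, read 13.69, 13.68, 13.39 and 13.81. Farthest below the F0 mean were RPL34 (-1.73), RPL35A (-1.17), RPS15A (-0.63), RPL6 (-0.55) and RPL22 (-0.49). Farthest above it were RPL12 (0.45), RPS9 (0.25), RPL29 (0.20), RPS7 (0.18) and RPL18 (0.16). For F6 and F0, limma called 0 members and 0 genes after adjustment, and 7 genes (0.0354%) but 0 members without it. The smallest member p in limma was 0.319, for RPL34.

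F12 against F0 asks the same after 12 rounds. No member was 2-fold beyond both F0 arrays in either direction, while 1.93% of all genes were 2-fold above both and 1.37% below. The nearest to it above was RPL22, 0.24 above the higher F0 array, and the farthest below both was RPL36A, near background. By any amount, 18 members lay above both F0 arrays, 34.6% against 19.5% of all genes, and 11 below both, 21.2% against 30.4%. F12 lay within 0.5 of F0 (2) for 52 of 52 members, against 77.3% of all genes, 64% of the like-signal band and 75.9% of the other genes with a mean of at least 13. The SD of F12 minus F0 (2) was 0.146 across members and 0.581 across all genes. Against the F0 mean the median member difference was 0.06 and that of all genes -0.24, but the member median was -0.07 after centring on all genes and 0.27 after centring on like-signal genes. Against the F0 mean 5 members were at least 2-fold higher, 9.62% against 19.4% of all genes: RPL31 (2.51), RPS24 (1.85), RPL22 (1.39), RPS7 (1.38) and RPL11 (1.13). Lower by at least 2-fold were 0 members and 8.94% of all genes. Farthest lower among members above background were RPL27A (-0.89), RPL8 (-0.61) and RPS14 (-0.36). RPLP2 and RPL36A were also lower, at signals too near background to size the difference. F12 was above F0 (2) for 27 members, 51.9% against 53.5% of all genes. Against F0 (1) alone, 8 members were at least 2-fold higher, 15.4% against 25% of all genes, and 1 lower, 1.92% against 32%, which makes 9 members in either direction against 56.9% of all genes. Against F0 (2) alone 0 members were 2-fold away in either direction, against 6.78% of all genes. These values share the F0 arrays with the comparison for F6. In limma 0 members and 0 genes passed after adjustment. Without it 85 genes (0.43%) and 0 members lay under 0.05, and RPL31 had the lowest p of the members, 0.15. Setting F6 above both F0 arrays with F12 below both held for 0 members and 4.08% of all genes, and the reverse for 11 members, 21.2% against 3% of all genes and 2.55% of the like-signal band.

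F6 and F12 together against F0 gave 0 members and 0 genes passing in limma, with 45 genes (0.228%) but 0 members under 0.05 without adjustment. For F6 or F12 singly, the error in limma came from the F0 pair and was pooled to an SE of 1.74 for each gene in F6 or F12 against F0. That SE is far wider than the range of most members and cannot resolve differences of the size seen here. A member that failed this test is not shown to be unchanged.

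Several members varied by different amounts on different probesets. Of the 111 probesets that named a member alone, 20 had a mean under 6. Of the others, the 68 with a mean of at least 12 had a median range of 0.50 against 1.49 for the 23 dimmer ones. For RPL31 the probeset used ran from 4.58 to 10.20, while an _x_at probeset read 13.24 and 13.84 on the parental arrays, 12.47 on F6 and 13.94 on F12. For RPL22 one probeset read 7.10, 11.65, 9.53 and 11.72, and 3 _x_at probesets had ranges from 0.51 to 0.80. RPL37, another large subunit protein, was steady by the probeset used (13.47, 13.97, 13.62 and 13.96) but another read 6.90, 10.94, 7.70 and 11.89. RPS6 was measured alike by 3 probesets, with ranges between 1.55 and 1.68, and RPS7 by 2, with ranges of 2.49 and 2.55. Of 25 members with several probesets at a mean of at least 6, the ranges differed by over 1 in 7, and F12 minus F6 had the same sign in each probeset for 17. For RPL7 the _x_at probesets, passed over by the rule, had means of 13.23 and 12.86 and were lowest on F6 at 12.36 and 12.05.

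**Figure D4:**
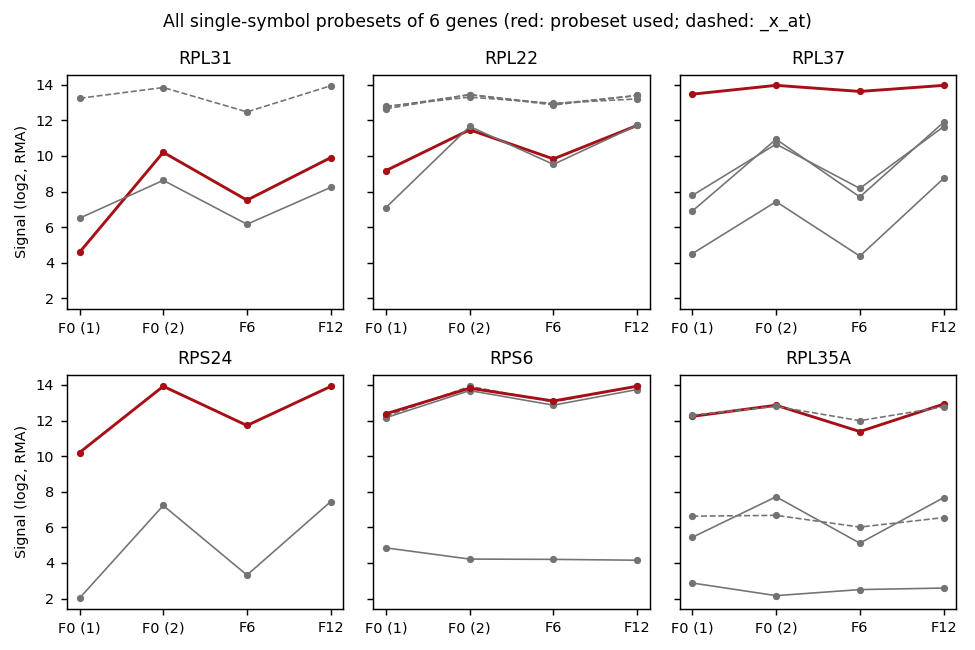
Log2 signal (vertical) of each single-symbol probeset on the 4 arrays (horizontal) for RPL31, RPL22, RPL37, RPS24, RPS6 and RPL35A, where a line joins the values of a probeset, red marks the probeset used and dashes mark _x_at names. Dim probesets of RPL31, RPL22 and RPL37 swing widely, the brightest of RPL22 and RPL37 vary by less than 1, and the brightest of RPL31 reads 12.47 on F6 and 13.94 on F12.

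A further 64 probesets list a matching symbol among several, 56 of them beside a small nucleolar RNA gene, many of which lie in introns of ribosomal protein genes. They were given no gene name here. The 55 with a mean of at least 6 had a median range of 0.48, a median F12 minus F6 of 0.21 and a median F0 (2) minus F0 (1) of 0.08, and 36 of them kept within a range of 1. Among the named members, 11 hold a small nucleolar RNA gene in the RefSeq annotation, with a median range of 0.50 against 0.54 for the other members.

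Paralogues with symbols of their own ran over ranges from 1.05 to 3.33. RPL22L1 read 9.27 on F0 (1), 11.50 on F0 (2), 9.25 on F6 and 11.70 on F12, a range of 2.45 beside 2.54 for RPL22. RPS27L, a p53 target, read 11.02, 12.48, 9.98 and 11.45, a range of 2.50 where RPS27 had 0.48. RPL36AL read 11.81, 12.47, 11.39 and 12.36. RPL39L read 9.07, 7.93, 8.36 and 7.94, highest on F0 (1), while RPL39, which lines the exit tunnel, read 13.84, 14.24, 13.90 and 14.20. RPL7L1 had a range of 3.33 and RPL26L1 of 1.42, RPL10L of 1.15, and RPL3L was under 6 throughout. Near-identical copies can share probes, so values of these genes and of members with processed copies are uncertain to that extent. FAU, whose product is cut to release another small subunit protein, read 13.63, 12.91, 13.47 and 13.21.

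Other genes of protein synthesis and ribosome assembly had wider median ranges than the ribosomal proteins. Translation initiation factors had a median range of 2.16 (33 measured of 34 listed), elongation and mRNA-binding factors 2.42 (10 of 14), ribosome assembly factors 2.52 (46 of 54) and RNA polymerase I and III machinery 2.05 (33 of 34). Mitochondrial ribosomal protein genes, which build the separate ribosome of that organelle, had 1.82 (75 genes), nuclear respiratory chain and ATP synthase genes 1.49 (74) and proteasome subunits 2.08 (34). Their median means lay between 7.98 and 11.04, well below the members, so signal differs along with the list and its part was not tested. In limma 0 genes of these lists passed in any comparison, as 0 of all genes did.

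EEF1A1, the main elongation factor, read 6.42 on F0 (1), 11.30 on F0 (2), 9.78 on F6 and 11.69 on F12, high on F0 (2) and F12 as RPS24 was. EIF5A, a factor that relieves stalled ribosomes, ran the other way at 13.12, 10.07, 12.81 and 9.28. The initiation factor subunit EIF2S2 read 6.71, 12.36, 9.54 and 12.37. For F12 minus F6 the medians were 0.22 for initiation factors, with 12 of 33 at least 2-fold higher and 9 lower, and -0.001 for assembly factors, with 15 of 46 higher and 16 lower. Over all genes 20.2% were at least 2-fold higher and 14.7% lower, and the ribosomal protein genes had 8 of 52 higher and 0 lower. These lists have lower signals than the members, and the part of signal in these counts was not tested. NOP58, a core protein of small nucleolar particles, read 6.36, 10.88, 7.75 and 10.65, while RRP9, another nucleolar particle protein, read 10.48, 6.53, 9.16 and 6.10. RNA polymerase I and III genes had a median of -0.25, with RRN3, the initiation factor of polymerase I, at 5.01, 9.08, 6.78 and 8.90. MYC, which drives ribosome production, read 8.81, 10.01, 10.57 and 10.02. Mitochondrial ribosomal protein genes had a median F12 minus F6 of -0.49. Of these 75 genes, 12 were at least 2-fold higher and 27 lower, beside 20.2% and 14.7% of all genes. For respiratory chain genes this median was -0.72 and for proteasome subunits -0.39. MDM2, to which free RPL11 binds, read 6.47, 9.72, 6.88 and 8.58, and the p53 target CDKN1A 9.63, 8.44, 7.71 and 6.84.

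**Figure D5:**
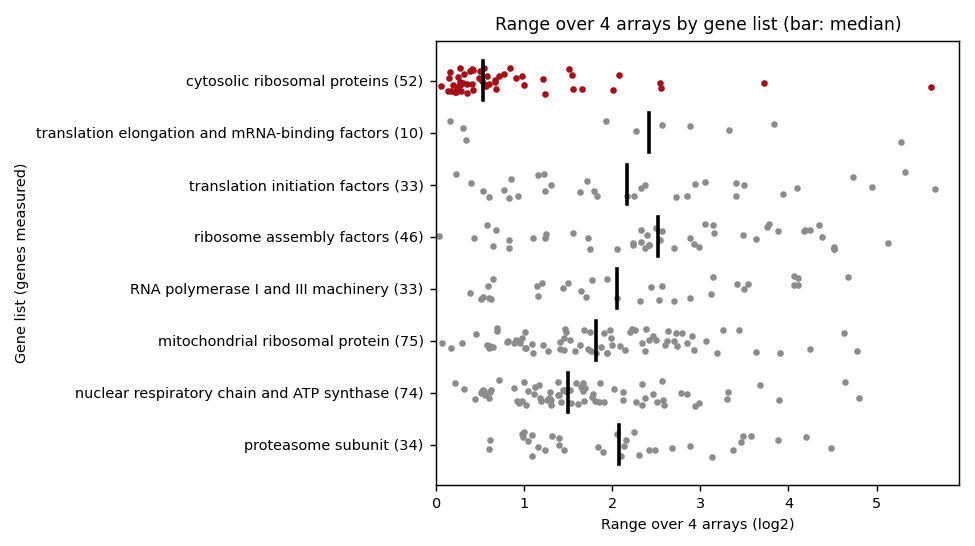
Range over the 4 arrays (horizontal, log2) of each gene in the cytosolic ribosomal protein set (red) and in 7 other lists (grey), with a black bar at the median. The ribosomal protein median of 0.53 lies left of the other medians, which run from 1.49 to 2.52.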

How the data were processed

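The 4 arrays of HuH7 were analysed: F0 (2 arrays), F6 and F12 (1 each). The authors deposited log2 values per probeset, and the submitters' processing notes name RMA and affy, with no version. RMA usually corrects background, sets arrays to a common distribution and summarises probes. Such values carry no counts, so the number of arrays limits precision. With a common distribution, a shift shared by most genes would not show.

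Of 54613 probesets, 41091 had 1 gene symbol in the platform annotation. Members matched RefSeq (GRCh38.p14) by Entrez number for 52 of 52, with 0 symbols altered. Differences were tested over 19775 genes with limma 3.58.1 in R 4.3.3 and Benjamini-Hochberg adjustment, with F0, F6 and F12 as 3 groups (1 residual degree of freedom), or with F6 and F12 joined against F0 (2 residual degrees of freedom). The script was tested on simulated data. Members and lists were chosen with earlier results of these data known. Named members are the 5 with the widest and narrowest range, the 5 farthest in each direction per comparison, those 2-fold beyond both F0 arrays, paralogues of members and some core genes (RPLP1, RPLP2, RPS6, RPL11 and RPS19); in other lists, genes among the 3 widest. Other named members, and MYC, RRN3, RRP9 and FAU, were chosen by role, by count or after their values were seen. Alternatives covered the probeset choice, a floor of log2 6, centring, the limma prior and each F0 array left out.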

Additional observations from a re-analysis of the deposited data

Results flagged for a closer look

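For 11 of 52 members, 21.2%, F6 lay below both F0 arrays and F12 above both. The F12 side was small in each, from 0.01 above the higher F0 array for RPL27 to 0.13 for RPS4X. F6 minus the lower F0 array ran from -0.07 for RPS4X to -0.86 for RPL35A. A value falls outside both F0 arrays more easily where these lie close together. The pattern held for 3% of all genes and 2.55% of the like-signal band. The reverse, F6 above both and F12 below both, held for 0 members and 4.08% of all genes. The difference was not tested, since each resistant group has 1 array, and both contrasts share the F0 arrays. The values of F12 minus F6 were 1.54 for RPL35A, 0.67 for RPS15A, 0.56 for RPS12, 0.48 for RPS27, 0.42 for RPL3 and 0.42 for RPS4X. They were 0.34 for RPL7, whose probeset was near background, 0.30 for RPS21, 0.29 for RPL19, 0.22 for RPL27 and 0.21 for RPS18. Most of these are small shifts, and the number of members was 4 of 52 after centring on all genes, against 2.96% of all genes, and 18 after centring on like-signal genes, against 4.96%.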

How the results depend on the processing

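With the mean of probesets 1 gene, BEX1, which is no member, passed in limma for F12 against F0 (adjusted p 0.00182), and the other 13 of 14 limma alternatives gave 0 genes; leaving out F0 (1) or F0 (2) could be fitted for F6 and F12 against F0 alone. Medians were called moved when they changed by at least 0.08. This limit is the median member difference F0 (2) minus F0 (1), 0.11, divided by the square root of 2. With the mean of probesets the members' median range was 0.70 and the median F12 minus F6 0.14. Centring on all genes gave -0.0693 for F12 minus F0 mean and -0.0171 for F0 (2) minus F0 (1), and centring on like-signal genes gave 0.27 for F12 minus F0 mean and 0.48 for F12 minus F6. Without F0 (1) or F0 (2) the median F6 minus F0 was -0.21 or -0.12, the median range 0.39 or 0.49, and members 2-fold from the remaining F0 array 7 or 5 on F6 (all genes 36.1% or 21.2%) and 0 or 9 on F12 (all genes 6.78% or 56.9%). Every bright single-symbol probeset together gave a median range of 0.67, an alternative added after seeing the data, as were the counts of members by array and the 2-fold counts without an F0 array. The all-gene medians of the arrays lay from -0.11 on F0 (1) to 0.08 on F12 about their mean, so member differences of that size have no settled direction. The members' median range was below that of all genes under each of the 4 probeset and centring alternatives, with member medians of 0.53 to 0.70 against 1.22 to 1.48. The like-signal band depended on the probeset choice. With the probeset of highest mean taken whatever its suffix, the band held 71 genes in place of 1449. Its median range was then 1.02, against 0.53 for members, where the main setting gave 1.76. At a mean of at least 13, the gap narrowed after centring on like-signal genes, to 0.54 for members and 0.75 for other genes. In the main setting these were 0.40 and 0.98. Under the remaining alternatives of this kind they were 0.36 to 0.43 and 0.91 to 1.10. Array files with probe signals were not used here, so background correction and normalization were not varied. No paired analysis was possible because F6 and F12 have 1 array each.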
